A study of Mus musculus with 24 samples.

Results

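Cells labelled granulocyte-monocyte progenitors were set against cells labelled stem cells, both from wild-type (WT) mouse blood-forming tissue. The 3 arrays titled WT LK GFPhi were compared with the 3 arrays titled WT LSK GFPneg-lo. These are 6 of the 24 arrays in the series. All 18193 genes that could be named were compared. The WT cells came from B-p-GFP-C mice on a mixed background of C57BL/6 and C3H, so both groups carried a green fluorescent protein (GFP) transgene built on Ikaros regulatory sequence. LK GFPhi cells, which the labels call GMP, were GFP-high LK cells (in the field's usage lineage-negative and Kit-positive). LSK GFPneg-lo cells, which the labels call HSC, were LSK cells (also Sca-1-positive) with no or low GFP. The other WT groups used below are LSK GFPhi (labelled LMPP, lymphoid-primed multipotent progenitors) and LK GFPneg (labelled MEP, megakaryocyte and erythroid progenitors), and the Ikaros-null (KO) groups are LK GFPhi and LSK GFPneg-lo cells of the I74 line on a mixed background of C57BL/6 and 129SV. Each group had 3 arrays, which the titles call biological replicates. Age and the number of animals behind an array are not given in the sources used here, so the p-values measure the spread between these arrays.

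Blood stem cells divide rarely, renew themselves and give rise to all blood lineages. Granulocyte-monocyte progenitors lie downstream of them, divide actively, fill their first granules with serine proteases and peroxidase, and give rise to neutrophils, monocytes and dendritic cells. Transcription factors of the C/EBP, PU.1 and IRF families are known to drive this programme, while factors such as Mecom, Hlf, Meis1 and Gata2 are known for their part in stem cell maintenance. The arrays measured the RNA of sorted cells in bulk. In such bulk RNA, fewer cells of a type and less RNA per cell cannot be told apart.

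Values are log2 signal after RMA, a method that corrects background, scales arrays to each other and summarises the probes of a probe set. A difference is WT LK GFPhi minus WT LSK GFPneg-lo on the log2 scale, given with its moderated standard error (SE) from limma. A gene is called where its Benjamini-Hochberg adjusted p from limma is below 0.05. Across genes, arrays of 1 group correlated at r = 0.979 to 0.994 and arrays of different groups at 0.948 to 0.978. WT LK GFPhi replicate 2 stood apart from its group, with lower levels of many granule and secretory genes. Elane, for example, was 12.16, 9.94 and 11.71 on WT LK GFPhi replicates 1, 2 and 3. On the WT LSK GFPneg-lo replicates of the same numbers it was 7.64, 6.60 and 7.42, so replicate 2 was the lowest there too. Without WT LK GFPhi replicate 2, 1266 genes were called higher and 1543 lower, against 861 and 1438 with it. Counts without that array are given for many of the lists below, and they keep WT LSK GFPneg-lo replicate 2 in. The count of genes called higher also moved to 557 without WT LK GFPhi replicate 1 and to 520 without WT LK GFPhi replicate 3. The X-linked gene Xist, transcribed from the inactive X of female cells, was between 11.97 and 13.31 on the WT LK GFPhi arrays and between 12.82 and 13.23 on the WT LSK GFPneg-lo arrays. The Y-linked gene Eif2s3y was 10.18, 7.95 and 9.62 on WT LK GFPhi replicates 1, 2 and 3, against 9.92, 8.04 and 9.31 on the WT LSK GFPneg-lo replicates of the same numbers. Signal for both genes was thus measured on all 6 arrays, and replicate 2 had the lowest Eif2s3y in both groups.

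Markers were set against both labels. They were chosen with earlier results of these data known and are no independent check. The names of both populations are those of the labels. All 7 measured granulocyte-monocyte progenitor markers (Mpo, Elane, Prtn3, Ctsg, Ms4a3, Csf1r and Fcgr3) were called higher in WT LK GFPhi cells, and all 7 measured stem cell markers (Procr, Mecom, Hlf, Slamf1, Fgd5, Ctnnal1 and Meis1) were called lower. All 4 early lymphoid markers were also called higher in WT LK GFPhi cells. Their mean level was 9.99 to 10.23 there, against 7.32 to 7.70 in WT LSK GFPneg-lo cells. Of the erythroid markers 3 of 4, and of the megakaryocyte markers 4 of 4, were called lower. None of the 5 markers of mature neutrophils, the 3 of B cells or the 3 of eosinophils was called. The mean level of the neutrophil markers was 5.90 to 6.16 on the WT LK GFPhi arrays and 5.96 to 6.23 on the WT LSK GFPneg-lo arrays, where the lower quartile of all gene means is 5.87 and 5.86. Of the macrophage markers 2 of 4 were called higher, of the mast cell and basophil markers 1 of 3 (Mcpt8), of the T and NK markers 1 of 3 (Klrd1), and of the endothelial and stromal markers 1 of 5 (Pecam1, 0.57 ± 0.12). Their part in the results was not tested. The genes behind the sort are not findings here. Kit was 12.02, 11.00 and 11.91 in WT LK GFPhi cells, against 12.74, 11.77 and 12.25 in WT LSK GFPneg-lo cells, and was called only with the replicate block (-0.61, adjusted p = 0.0194) or the mean of its probe sets (-0.70, adjusted p = 0.00374). Ikzf1, the Ikaros gene itself, had 11.73, 11.49 and 11.52 against 11.36, 11.09 and 10.99, and its difference of 0.43 ± 0.36 was called only with the block (adjusted p = 0.023) or in a fit of the 12 WT arrays (0.0463).

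The populations differed at 2299 of 18193 genes (12.6%). In WT LK GFPhi cells 861 genes were higher (4.73% of all) and 1438 were lower (7.9%). Each count of a gene list below is to be read beside these shares. The fit behind these counts did not pair arrays. With replicate number as a block, which pairs arrays of the same number, 1410 were higher and 1962 lower. With each array centred on its median, 1208 were higher and 1271 lower, so the share of calls that were higher moved to 48.7%, against 37.5% in the values as deposited. Differences of at least 2-fold made up 296 of the higher and 564 of the lower calls, and differences of at least 8-fold 25 and 45. The median difference over all genes was 0.04. The arrays of the 2 groups did not overlap at 4784 genes (26.3%), of which 2240 were called. As 2299 genes were called in all, a lack of overlap adds little to a call in what follows.

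**Figure D1:**
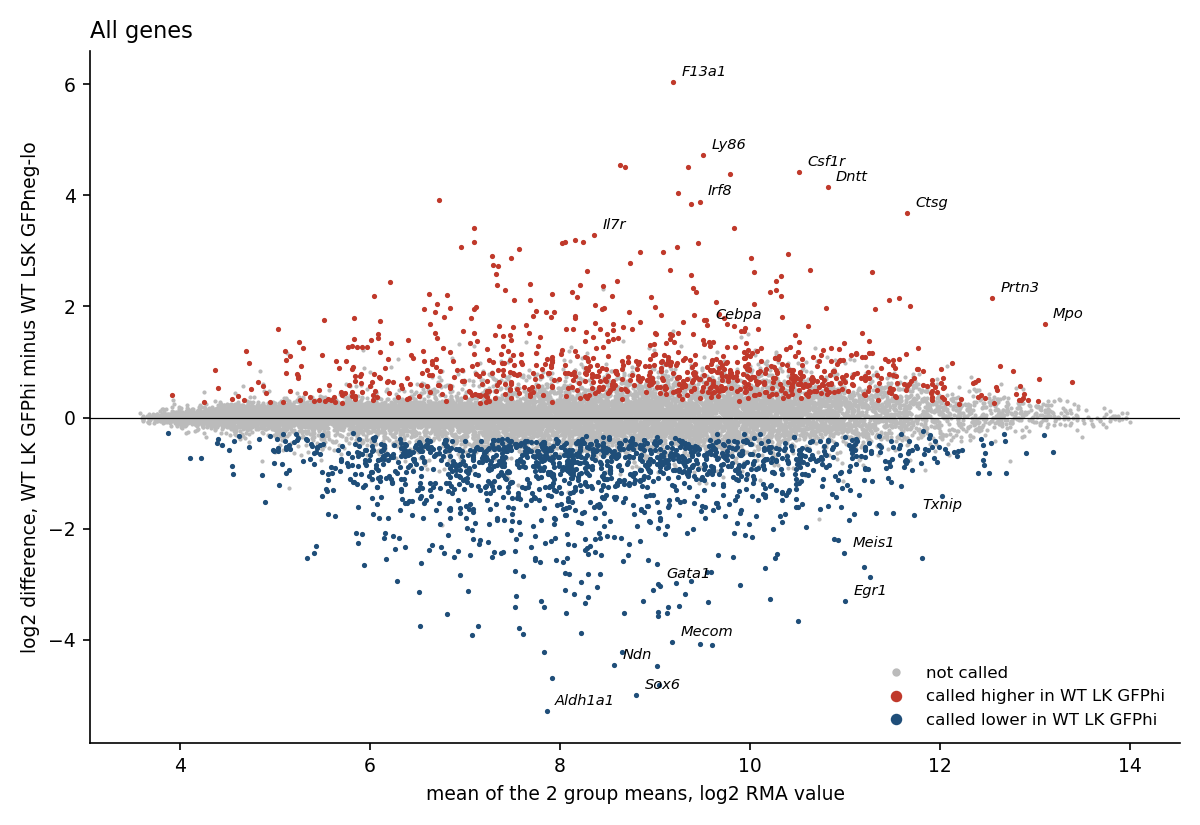
Each point is 1 of 18193 genes, with the mean of the 2 group means on the x axis (log2 RMA value) and the log2 difference, WT LK GFPhi minus WT LSK GFPneg-lo, on the y axis. Called genes are coloured (861 higher in red, 1438 lower in blue), and the largest rise, F13a1 at 6.04, and the largest fall, Aldh1a1 at -5.29, lie at the top and the bottom.

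The largest rise was in F13a1, which encodes the A subunit of coagulation factor XIII and is made by monocytes and macrophages. It was 12.50, 11.94 and 12.17 on the WT LK GFPhi arrays, against 6.40, 6.01 and 6.10 on the WT LSK GFPneg-lo arrays, a 65.6-fold difference (6.04 ± 0.38, adjusted p = 1.41e-09). Every WT LK GFPhi array lay far above every WT LSK GFPneg-lo array. Ly86, which encodes the MD-1 partner of a Toll-like receptor homologue, was 11.80, 12.06 and 11.74, against 7.10, 7.28 and 7.05 in WT LSK GFPneg-lo cells (4.73 ± 0.30). Anxa3, a calcium-binding annexin gene, differed by 4.55 ± 0.36, Mpeg1, the gene of the macrophage pore-forming protein perforin-2, by 4.51 ± 0.44, and Hp, the haptoglobin gene, by 4.51 ± 0.44. The 15 largest rises, for which a lack of overlap was a condition of choice, also hold Csf1r, Ccr2, Dntt, Elane, Igsf6, Irf8, Chdh (choline dehydrogenase, 3.84 ± 0.38), Ctsg, Atp8b4 (a phospholipid-transporting ATPase family gene, 3.40 ± 0.24) and Tifab (3.40 ± 0.23).

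The largest fall was in Aldh1a1, which encodes an aldehyde dehydrogenase that makes retinoic acid. It was 4.96, 5.29 and 5.39 in WT LK GFPhi cells, against 10.85, 10.95 and 9.71 in WT LSK GFPneg-lo cells, a 39.0-fold difference (-5.29 ± 0.51, adjusted p = 3.89e-07). Sox6, a transcription factor gene of erythroid and other lineages, was 6.41, 6.13 and 6.37 against 11.46, 10.96 and 11.48 (-5.00 ± 0.24). For the falls too, a lack of overlap between the groups was a condition of choice. Tgm2, the tissue transglutaminase gene, fell by 4.82 ± 0.35 on the probe set used, and 4 of its 6 probe sets were called, but the probe set used once those ending in _x_at and _s_at were left out differed by -0.02 (adjusted p = 0.972). Mamdc2 (-4.68 ± 0.30), Csgalnact1 (-4.46 ± 0.20), an enzyme of chondroitin sulfate synthesis, Ndn, Fgd5, Mmrn1 (multimerin 1 of platelets and endothelium, -4.22 ± 0.29), Car1, Procr, Mecom, Mfsd2b, Rhag, Apoe (apolipoprotein E, -3.88 ± 0.38) and Cavin2 (a caveolar coat protein gene, -3.78 ± 0.57) complete the 15 largest falls.

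**Figure D2:**
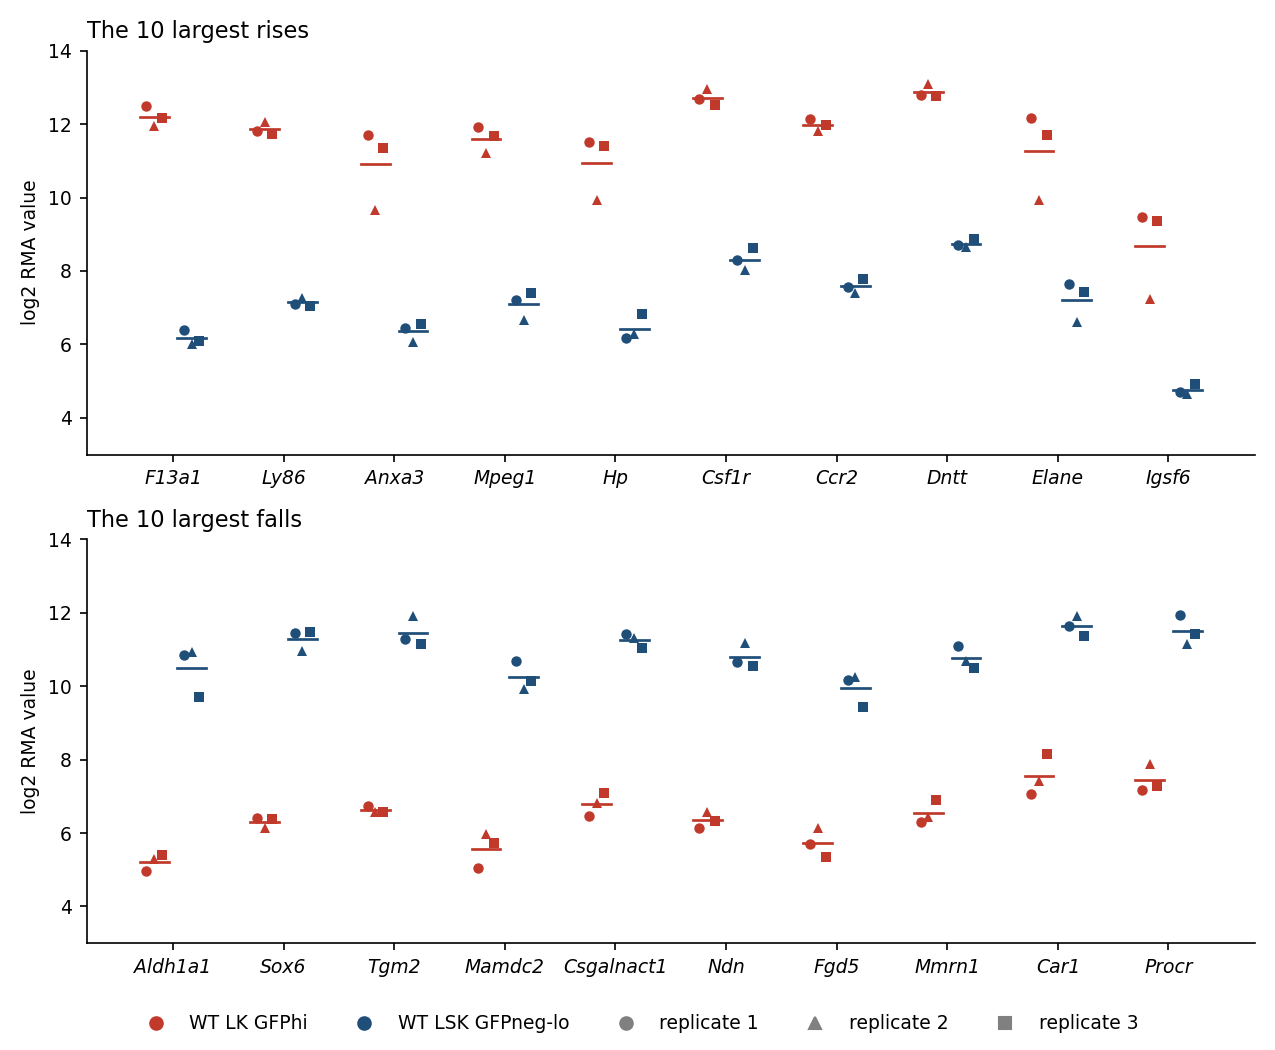
Log2 RMA values (y axis) of the 10 largest rises and 10 largest falls on each WT LK GFPhi array (red) and each WT LSK GFPneg-lo array (blue), with marker shape for the replicate number and bars for group means. Genes were picked among those whose groups do not overlap. WT LK GFPhi replicate 2 is the lowest of its group for Anxa3, Hp, Elane and Igsf6.

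Primary granules are the first granules that neutrophil precursors make. Genes on the list set up for them, which also holds Hp, Slpi and Igsf6, were mostly higher in WT LK GFPhi cells. Not every listed gene encodes a protein of these granules. Of 23 measured, 14 were called higher, 0 lower and 9 in neither direction, with a median difference of 1.25 (all genes 0.04). Their proximal promoters are shown for the peroxidase gene Mpo and the serine protease genes Elane, Prtn3 and Ctsg, since these 4 moved together and Elane and Prtn3 start 6645 bases apart on the same strand of chromosome 10. The 250 bases before each RefSeq gene start lie in build GRCm38.p6 at chr11:87793534-87793783 (plus strand), chr10:79886062-79886311 (plus strand), chr10:79879417-79879666 (plus strand) and chr14:56102575-56102824 (minus strand). They are printed 5′ to 3′ with matches to GAGGAA (the core of PU.1 sites) or CAACTG (the core of Myb sites), on either strand, in capitals.
Mpo: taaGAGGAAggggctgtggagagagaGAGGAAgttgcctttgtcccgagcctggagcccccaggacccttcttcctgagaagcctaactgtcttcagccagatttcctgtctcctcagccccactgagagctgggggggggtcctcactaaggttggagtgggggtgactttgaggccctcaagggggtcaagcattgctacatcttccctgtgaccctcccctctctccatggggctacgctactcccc
Elane: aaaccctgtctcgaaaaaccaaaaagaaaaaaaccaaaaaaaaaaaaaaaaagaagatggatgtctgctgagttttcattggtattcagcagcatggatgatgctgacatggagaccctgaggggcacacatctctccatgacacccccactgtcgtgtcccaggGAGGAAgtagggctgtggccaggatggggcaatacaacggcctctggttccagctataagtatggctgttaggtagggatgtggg
Prtn3: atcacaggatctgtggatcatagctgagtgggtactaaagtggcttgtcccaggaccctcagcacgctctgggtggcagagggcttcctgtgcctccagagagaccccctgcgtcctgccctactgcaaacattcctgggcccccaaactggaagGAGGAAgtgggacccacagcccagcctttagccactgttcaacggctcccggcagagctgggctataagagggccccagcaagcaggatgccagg
Ctsg: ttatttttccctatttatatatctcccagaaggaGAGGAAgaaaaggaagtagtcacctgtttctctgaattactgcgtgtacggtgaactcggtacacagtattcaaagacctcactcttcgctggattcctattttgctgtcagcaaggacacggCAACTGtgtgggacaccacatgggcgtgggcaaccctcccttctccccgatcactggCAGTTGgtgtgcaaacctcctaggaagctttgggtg

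GAGGAA was found in all 4 promoters, starting 247 and 224 bases before the start of Mpo, 85 before Elane, 95 before Prtn3 and 216 before Ctsg. CAACTG was found in Ctsg alone, 93 bases before the start and, on the opposite strand as CAGTTG, 36 bases before it. The C/EBP letters TTNNGNAA were in none of these windows. Over all 27025 promoters of this length, 36.9% held the C/EBP letters, 23.1% the PU.1 letters and 11.1% the Myb letters. Over the 14452 of them that belong to genes on the array, the shares were 30.9%, 22.7% and 9.57%. The PU.1 letters were in 38.1% of the 21 primary granule promoters, in 25.5% of the 695 promoters of genes called higher and in 272 of the 1135 of genes called lower. The C/EBP letters were in 42.9%, 29.4% and 29.0% of these sets, and the Myb letters in 4 of 21, 10.2% and 9.34%. Such matches are letters in a window and no measure of binding.

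Mpo, the myeloperoxidase gene, was 14.01, 13.82 and 13.99 in WT LK GFPhi cells, against 12.30, 12.03 and 12.44 in WT LSK GFPneg-lo cells (1.68 ± 0.31, 3.20-fold, adjusted p = 0.000838). Elane, the neutrophil elastase gene, was 12.16, 9.94 and 11.71 against 7.64, 6.60 and 7.42 (4.05 ± 0.41, 16.6-fold). Ctsg, the cathepsin G gene, was 13.72, 13.08 and 13.64 against 9.73, 9.45 and 10.25 (3.67 ± 0.29, 12.8-fold). The groups were apart for all 3 genes, and replicate 2 was the lowest of its group for each, in WT LK GFPhi and in WT LSK GFPneg-lo cells. Prtn3, the proteinase 3 gene, was 13.80, 13.32 and 13.76 in WT LK GFPhi cells and 11.07, 11.60 and 11.74 in WT LSK GFPneg-lo cells (2.16 ± 0.27). Slpi, a secreted protease inhibitor gene, rose by 3.07 ± 0.34, and Hp by 4.51 ± 0.44. Igsf6, an immunoglobulin superfamily gene, rose by 3.92 ± 0.38, although WT LK GFPhi replicate 2 (7.23) lay over 2 units below the other arrays of its group (9.47 and 9.36). Ms4a3, a membrane protein gene of granulocyte-monocyte progenitors, was 12.85, 9.95 and 12.83 against 8.86, 8.79 and 9.13. Its difference of 2.95 ± 0.49 was lost in a fit of the 6 arrays alone (adjusted p = 0.0568) and was 3.92 without replicate 2. Without that array 16 of the 23 genes were called higher, and their median was 1.70. With any 1 of the 6 arrays left out 12 to 16 were called higher, and in a fit of the 6 arrays alone 10 were.

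The granules of mature neutrophils are filled later, and their genes were not raised as a group. Of 23 measured, 2 were called higher and 2 lower, with a median of 0.12. Over all genes the shares were 4.73% higher and 7.9% lower. The 2 rises became 4 without WT LK GFPhi replicate 2, and the 2 falls became 0 or 1 without any 1 array other than WT LSK GFPneg-lo replicate 2, and 0 with the replicate block. The larger of the 2 rises was in Ifitm6, an interferon-induced transmembrane family gene (1.19 ± 0.18). Lcn2, the lipocalin 2 gene of secondary granules, was 5.18, 4.51 and 6.12 in WT LK GFPhi cells and 4.37, 4.49 and 4.41 in WT LSK GFPneg-lo cells, and was not called (adjusted p = 0.0718), except with array weights (1.24, adjusted p = 0.00113) or without WT LK GFPhi replicate 2 (1.23, adjusted p = 0.00426).

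Monocyte, macrophage and dendritic cell genes were mostly higher as well. Of 36 measured, 26 were called higher and 2 lower, with a median of 1.34. Csf1r, the receptor of macrophage colony-stimulating factor, was 12.69, 12.96 and 12.52 in WT LK GFPhi cells, against 8.29, 8.03 and 8.62 in WT LSK GFPneg-lo cells (4.41 ± 0.24, 21.3-fold, adjusted p = 2.3e-10). Ccr2, the chemokine receptor of inflammatory monocytes, was 12.15, 11.82 and 11.98 against 7.57, 7.41 and 7.79 (4.39 ± 0.20, 21.0-fold). Both genes were tight within each group and far apart between groups. Tyrobp, the DAP12 signalling adaptor, rose by 2.56 ± 0.22, Fcer1g, the common Fc receptor chain, by 1.14 ± 0.17, and Cd14, the lipopolysaccharide co-receptor, by 1.62 ± 0.22. Cd68, a lysosomal glycoprotein of macrophages, rose by 1.91 ± 0.24, and Cx3cr1, the fractalkine receptor, by 2.12 ± 0.25. Fcgr3, an Fc gamma receptor, was 9.23, 6.63 and 8.37 against 6.09, 6.24 and 6.01 (1.96 ± 0.38), and its call was lost in a fit of the 6 arrays alone (adjusted p = 0.0981). Without WT LK GFPhi replicate 2 there were again 26 called higher, and 1 lower. With any 1 of the 6 arrays left out 20 to 26 were called higher, and in a fit of the 6 arrays alone 21 were. The falls also numbered 1 without WT LSK GFPneg-lo replicate 1 or 3.

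Of 8 measured genes of the NADPH oxidase and related oxidant chemistry, 6 rose and 0 fell, with a median of 1.52. Ncf1, the p47phox subunit of the oxidase, was 11.41, 11.52 and 11.40 in WT LK GFPhi cells and 8.40, 8.56 and 8.75 in WT LSK GFPneg-lo cells (2.87 ± 0.18). The catalytic subunit gene Cybb was 9.55, 7.32 and 9.14 against 5.35, 5.72 and 5.48 (3.15 ± 0.47), with replicate 2 again lowest in its group. Ncf4, the p40phox subunit, rose by 1.41 ± 0.16, and Hvcn1, the proton channel that balances oxidase charge, by 1.63 ± 0.20. Among 21 Toll-like receptor pathway genes 5 rose and 3 fell, including a rise of 1.76 ± 0.16 in Tlr1. Over all genes 4.73% rose and 7.9% fell. The 3 falls dropped to 0 without WT LK GFPhi replicate 2, WT LSK GFPneg-lo replicate 1 or WT LSK GFPneg-lo replicate 3, and to 1 without WT LK GFPhi replicate 1.

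Of 27 measured transcription factor genes of the myeloid lineages, 8 rose and 2 fell, with a median of 0.22. Among all genes, 4.73% rose and 7.9% fell. Irf8, which directs monocyte and dendritic cell fate, was 11.09, 11.90 and 11.25 in WT LK GFPhi cells, against 7.15, 7.67 and 7.76 in WT LSK GFPneg-lo cells (3.89 ± 0.31, 14.8-fold). Its second probe set moved the same way (4.93). Cebpa, required for granulocyte-monocyte progenitors to form, was 10.30, 10.13 and 10.70 against 8.79, 8.59 and 8.77 (1.66 ± 0.17, 3.16-fold). Both factors were higher on every WT LK GFPhi array. Cebpd rose by 2.19 ± 0.21, Id2, an inhibitor of E proteins, by 2.59 ± 0.47, and Nfil3, a bZIP factor of innate lymphoid and dendritic cells, by 1.34 ± 0.19. Spi1, which encodes PU.1, was 8.09, 9.37 and 9.18 against 7.98, 8.33 and 8.06. These ranges overlapped, the difference was 0.76 ± 0.24 (adjusted p = 0.0451), and the call was lost in the fits of the 6 arrays (0.239) and of the 12 WT arrays (0.136), with the replicate block (0.0628), and without any 1 array other than WT LK GFPhi replicate 1 (0.0545 to 0.213). Gfi1, which represses monocyte genes in granulocyte precursors, was 9.96, 9.23 and 10.15 against 9.76, 9.04 and 9.88 so its groups overlapped and it was not called (0.22 ± 0.30). The 8 rises dropped to 5 without any 1 of the WT LSK GFPneg-lo arrays, and the 2 falls became 5 with the replicate block.

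The growth factor receptors did not move together. Of 23 measured, 5 rose and 2 fell. Over all genes 4.73% rose and 7.9% fell, and the counts in this paragraph stand beside these shares. The 5 dropped to 3 without WT LK GFPhi replicate 1 or WT LSK GFPneg-lo replicate 1, and to 2 without WT LSK GFPneg-lo replicate 2. Il6st, the gp130 signalling chain of interleukin 6 family receptors, was 10.24, 11.18 and 10.27 in WT LK GFPhi cells and 7.84, 8.54 and 8.33 in WT LSK GFPneg-lo cells (2.33 ± 0.34). Csf3r, the granulocyte colony-stimulating factor receptor, was 9.78, 9.59 and 9.67 against 9.74, 9.74 and 9.68 (-0.04 ± 0.17), and its groups overlapped. Of 24 chemokine and chemoattractant receptor genes 6 rose and 1 fell, among them Ccr1 (2.72 ± 0.40), Cxcr4, the receptor of CXCL12 (1.89 ± 0.25), and S1pr3, a sphingosine 1-phosphate receptor (2.08 ± 0.22). The integrin gene Itgal, the alpha chain of LFA-1, rose by 1.49 ± 0.22.

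Several genes known from early lymphoid cells were also higher in WT LK GFPhi cells. Of 23 measured, 10 rose and 3 fell, where 4.73% of all genes rose and 7.9% fell. The median was 0.40, and the 3 falls became 5 with the replicate block. Dntt, the terminal transferase of lymphoid precursors, was 12.79, 13.11 and 12.76 against 8.70, 8.65 and 8.88 in WT LSK GFPneg-lo cells (4.14 ± 0.48, 17.7-fold, adjusted p = 3.52e-06). Il7r, the interleukin 7 receptor alpha chain, was 9.74, 10.25 and 9.99 against 6.91, 6.46 and 6.78 (3.28 ± 0.26, 9.71-fold). Rag1, a recombinase of antigen receptor genes, was 5.86, 5.59 and 6.05 against 4.38, 4.13 and 4.18 (1.60 ± 0.12). For these 3 genes no WT LK GFPhi array came down to the highest WT LSK GFPneg-lo array, and Rag1 stayed low in both groups. Ighm, the immunoglobulin mu heavy chain gene, was 11.37, 11.66 and 11.03 against 7.64, 9.66 and 8.89 (2.63 ± 0.36), and 2 of its 11 probe sets were called. Flt3, a cytokine receptor of multipotent and lymphoid progenitors, rose by 1.15 ± 0.29, a call lost without WT LSK GFPneg-lo replicate 2 (adjusted p = 0.0754). Ltb, the lymphotoxin beta gene, went the other way, at 5.60, 6.84 and 6.49 against 9.80, 9.57 and 10.10 (-3.51 ± 0.34). Of 17 B lineage genes 2 were higher and 0 lower, where 4.73% and 7.9% of all genes were. The 2 became 0 or 1 without any 1 array, while 1 was lower with the replicate block or without WT LK GFPhi replicate 2. Of 20 T and NK genes 2 were higher and 2 lower (12.6% of all genes were called), and the higher became 1 without WT LK GFPhi replicate 2 or WT LSK GFPneg-lo replicate 2 or 3, the lower 1 without WT LK GFPhi replicate 1. Klrd1, an NK receptor chain, rose by 0.81 ± 0.18 at 5.52, 5.45 and 5.60 against 4.86, 4.52 and 4.76, and Gata3, a T cell factor also used by stem cells, fell by 0.97 ± 0.21.

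Most stem cell transcription factor genes were lower in WT LK GFPhi cells. Of 23 measured, 0 rose, 15 fell and 8 were not called, with a median of -0.97. Mecom, which encodes the stem cell regulator EVI1, was 6.43, 7.73 and 7.32 in WT LK GFPhi cells, against 11.26, 11.10 and 11.23 in WT LSK GFPneg-lo cells (-4.04 ± 0.25, 16.4-fold lower, adjusted p = 1.12e-09). Ndn, the growth suppressor necdin, was 6.15, 6.57 and 6.32 against 10.65, 11.18 and 10.55 (-4.45 ± 0.30, 21.9-fold lower). Mycn, a Myc family gene, was 6.98, 7.61 and 7.26 against 10.96, 10.83 and 10.54 (-3.49 ± 0.36) on the probe set used. Its other probe sets differed by 0.01 and 0.16 and were not called. For these factors, on the probe sets used, the lowest WT LSK GFPneg-lo array was at least 2 units above the highest WT LK GFPhi array. Hlf (-2.71 ± 0.22), Prdm16 (-3.51 ± 0.31), Meis1 (-2.44 ± 0.30) and Gata2 (-2.20 ± 0.18), all factors with known roles in stem cell maintenance, fell as well. Gata2 remained at 9.58, 10.12 and 9.76 on the WT LK GFPhi arrays, against 12.07, 12.02 and 11.99. Of 21 Hox genes 6 fell and 0 rose, including Hoxa10 (-1.67 ± 0.19) and Hoxb5 (-1.16 ± 0.17), where 7.9% of all genes fell and 4.73% rose. The 6 became 3 without WT LK GFPhi replicate 1 or WT LSK GFPneg-lo replicate 1.

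Of 24 measured surface and adhesion genes of stem cells, 16 fell and 0 rose, with a median of -0.88. Procr, the endothelial protein C receptor used to sort stem cells, was 7.18, 7.87 and 7.27 in WT LK GFPhi cells, against 11.93, 11.16 and 11.43 in WT LSK GFPneg-lo cells (-4.07 ± 0.27, 16.8-fold lower). Fgd5, a guanine nucleotide exchange factor gene used to mark stem cells, was 5.69, 6.14 and 5.34 against 10.16, 10.25 and 9.43 (-4.22 ± 0.26). Slamf1, the CD150 antigen of stem cell sorting, was 7.12, 7.08 and 7.30 against 9.38, 10.09 and 9.27 (-2.41 ± 0.24). The groups were apart for all 3. Esam, an endothelial adhesion molecule, fell (-1.58 ± 0.13), as did the laminin-binding integrin chain gene Itga6 (-1.90 ± 0.19). Vwf, the von Willebrand factor gene, was 4.94, 5.40 and 5.45 against 8.46, 10.23 and 8.33 (-3.74 ± 0.52), with replicate 2 the highest WT LSK GFPneg-lo array. Cd34, found on most progenitors, was 12.47, 12.04 and 12.29 against 12.31, 10.92 and 11.76, so its groups overlapped and it was not called (0.60 ± 0.40).

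Some genes that hold cells out of division, and some imprinted growth genes, were lower too. Of 18 cell cycle brake genes 4 fell and 0 rose, but 10 differences were above 0 and the median was 0.07, and 2 rose with the replicate block and 1 without WT LK GFPhi replicate 1. Of 13 imprinted genes 6 fell and 0 rose, with Ndn and Cdkn1c among them. Both lists stand beside the 7.9% of all genes that fell and the 4.73% that rose. Cdkn1c, the p57 inhibitor of cyclin-dependent kinases, was 5.61, 5.79 and 5.78 in WT LK GFPhi cells, against 8.33, 8.16 and 7.89 in WT LSK GFPneg-lo cells (-2.40 ± 0.21, 5.28-fold lower). Every WT LK GFPhi array lay more than 2 units below every WT LSK GFPneg-lo array. Txnip, the thioredoxin-interacting protein, fell (-1.75 ± 0.20), as did Foxo3, a factor of stem cell quiescence (-0.87 ± 0.18). Grb10, an adaptor that dampens insulin receptor signalling, fell (-3.11 ± 0.34), as did the sarcoglycan gene Sgce (-1.89 ± 0.19). The long noncoding RNA gene Meg3 fell on the probe set used (-2.17 ± 0.22) and on another (-3.21). Most of its probe sets were not called, for example one at -0.28.

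Many erythroid and megakaryocyte genes were lower in WT LK GFPhi cells than in WT LSK GFPneg-lo cells. Of 20 erythroid genes 14 fell and 1 rose, with a median of -1.20, and of 23 megakaryocyte and platelet genes 14 fell and 0 rose, with a median of -0.89. Gata1, the master factor of both lineages, was 7.49, 7.50 and 7.62 in WT LK GFPhi cells, against 10.05, 11.20 and 10.35 in WT LSK GFPneg-lo cells (7.99-fold lower, adjusted p = 8.94e-05). Car1, carbonic anhydrase 1 of red cell precursors, was 7.07, 7.42 and 8.15 against 11.65, 11.91 and 11.37 (-4.10 ± 0.48). Rhag, the Rh-associated glycoprotein, was 5.29, 5.84 and 5.84 against 8.63, 10.25 and 9.79 (-3.90 ± 0.42). The groups did not overlap, and replicate 2 was the highest WT LSK GFPneg-lo array for all 3. Mfsd2b, a sphingosine 1-phosphate exporter of red cells and platelets, fell (-3.90 ± 0.73), and so did the FOG1 cofactor gene Zfpm1 (-3.18 ± 0.28), the water channel gene Aqp1 (-3.22 ± 0.36), the blood group gene Ermap (-3.41 ± 0.36) and the factor gene Nfe2 (-1.39 ± 0.13). The single erythroid rise was Tfrc, the transferrin receptor of dividing and red cell precursors (1.03 ± 0.22). Itga2b, the platelet integrin CD41, was 7.93, 8.19 and 8.38 against 10.76, 11.26 and 10.79 (-2.77 ± 0.24), and the thrombin receptor gene F2r was 9.89, 11.42 and 10.34 against 12.97, 13.15 and 13.09 (-2.52 ± 0.27). Gng11, a G protein gamma chain gene, fell by 2.63 ± 0.27. The erythroid list mean was 7.32 to 7.52 on the WT LK GFPhi arrays and 8.89 to 9.32 on the WT LSK GFPneg-lo arrays. The globin gene Hba-a1 lay at 5.23 to 5.54 in WT LK GFPhi cells and 5.33 to 5.52 in WT LSK GFPneg-lo cells, below the lower quartile of gene means in both, and was not called. The stem cell surface list and the megakaryocyte list share Slamf1 and Vwf.

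**Figure D3:**
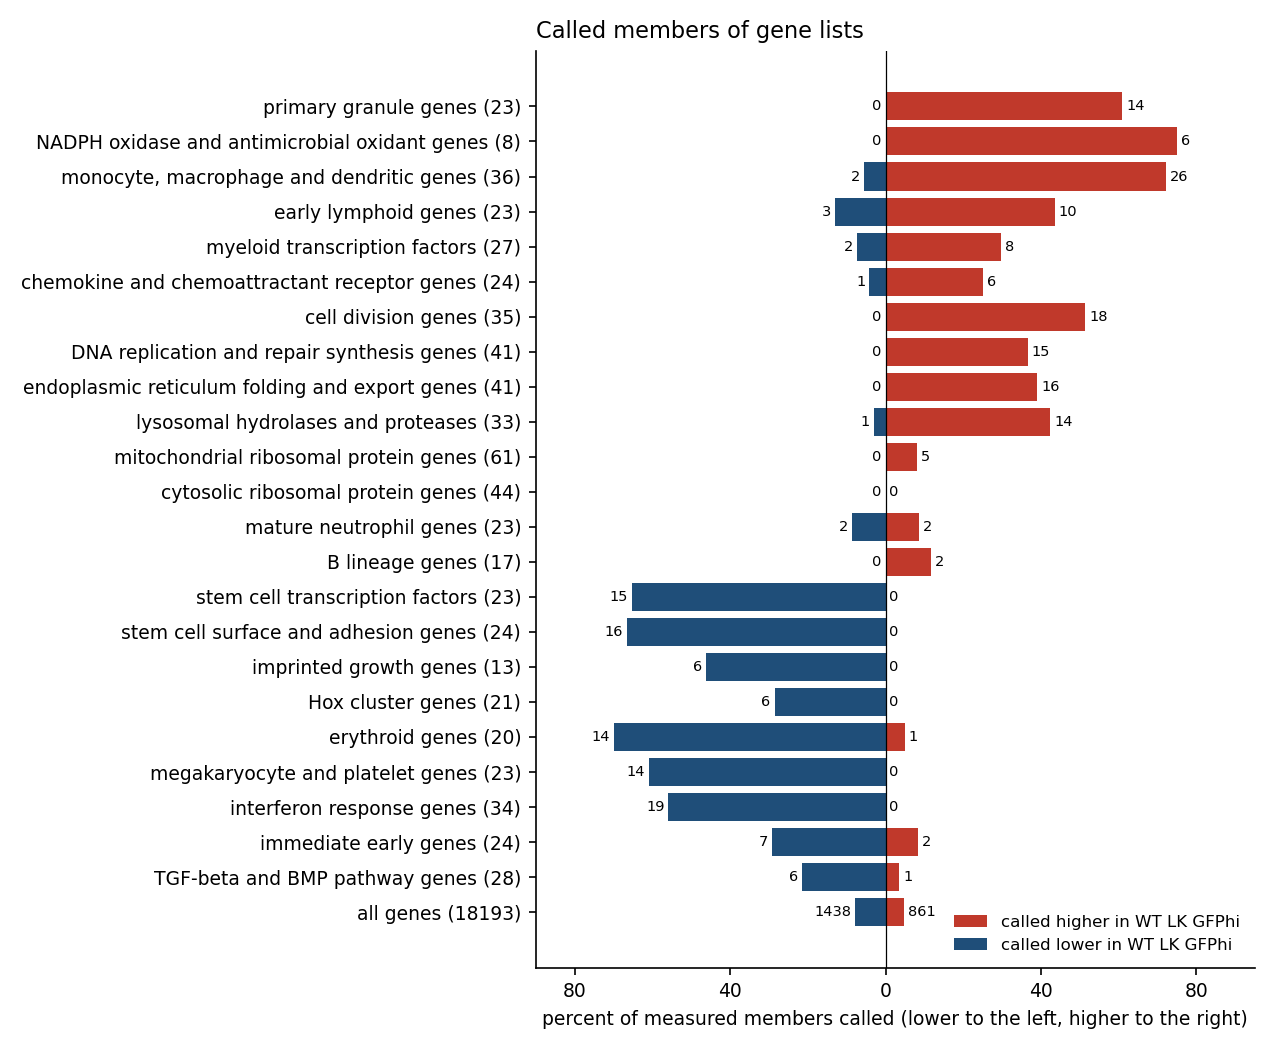
Bars give the percent of the measured members of each gene list (number in brackets) that were called higher (red, to the right) or lower (blue, to the left) in WT LK GFPhi cells, with the counts at the bar ends. Granule, oxidase and monocyte lists lie to the right, and stem cell, erythroid, megakaryocyte and interferon lists to the left, beside 861 and 1438 calls over all 18193 genes.

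Many interferon response genes were lower in WT LK GFPhi cells. Of 34 measured, 19 fell, 0 rose and 15 were not called, with a median of -0.86. Iigp1, an interferon-inducible GTPase, was 6.97, 7.96 and 8.26 in WT LK GFPhi cells, against 11.01, 10.78 and 10.91 in WT LSK GFPneg-lo cells (-3.17 ± 0.41, 8.97-fold lower). Gbp2, a guanylate-binding protein, was 7.31, 7.94 and 7.37 against 10.60, 10.67 and 10.43 (-3.02 ± 0.37). Ifit1, an antiviral RNA-binding protein, was 5.74, 6.28 and 6.54 against 8.44, 8.70 and 8.70 (-2.43 ± 0.30). All WT LK GFPhi arrays lay below all WT LSK GFPneg-lo arrays for these genes. Isg20, an exonuclease, fell (-2.82 ± 0.35), as did Ddx58, the RIG-I sensor of viral RNA (-1.75 ± 0.24). Without WT LK GFPhi replicate 2, 19 were again called lower. With any 1 of the 6 arrays left out the number was 14 to 19, and it was 17 in a fit of the 6 arrays alone.

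Immediate early genes, which respond within minutes to growth factors and stress, were partly lower. Of 24 measured 7 fell and 2 rose, with a median of -0.50, where 7.9% of all genes fell and 4.73% rose. The falls depended on single arrays. They numbered 1 without WT LK GFPhi replicate 1, 2 without WT LK GFPhi replicate 3, 3 without WT LSK GFPneg-lo replicate 1 and 4 without WT LSK GFPneg-lo replicate 2 or 3, and the 2 rises became 1 without WT LK GFPhi replicate 1 or any 1 of the WT LSK GFPneg-lo arrays. Egr1, a zinc finger factor of this class that is also known from quiescent stem cells, was 8.92, 10.08 and 9.05 in WT LK GFPhi cells and 13.04, 12.79 and 12.13 in WT LSK GFPneg-lo cells (-3.30 ± 0.64, adjusted p = 0.0011), with no overlap. Fosl2, a Fos family gene, was 10.01, 8.99 and 9.81 against 8.12, 8.20 and 8.56 (1.31 ± 0.24).

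Many genes of cell division and some of DNA synthesis rose. Of 35 division genes 18 rose and 0 fell, and all 35 differences were above 0, with a median of 0.68. Of 41 replication genes 15 rose and 0 fell, with a median of 0.36. Tacc3, a spindle protein gene, was 9.46, 9.11 and 9.63 in WT LK GFPhi cells, against 8.16, 8.58 and 8.65 in WT LSK GFPneg-lo cells (0.94 ± 0.20, 1.91-fold). Top2a, the DNA topoisomerase of chromosome separation, was 12.87, 12.52 and 12.80 against 11.92, 11.90 and 12.34 (0.67 ± 0.16). Mki67, which encodes the Ki-67 antigen, was 12.72, 12.43 and 12.81 against 12.28, 11.86 and 12.35 (0.49 ± 0.26) and was called only with the replicate block (adjusted p = 0.0148), although its groups did not overlap. The kinetochore kinase genes Ttk (0.90 ± 0.20) and Bub1b (0.84 ± 0.20), the cytokinesis gene Racgap1 (1.26 ± 0.27), the ribonucleotide reductase gene Rrm2 (0.68 ± 0.11) and the DNA methylation cofactor gene Uhrf1 (0.72 ± 0.13) rose. The 18 division genes became 30 with the replicate block, 7 without WT LK GFPhi replicate 3, 8 without WT LSK GFPneg-lo replicate 1 and 11 without WT LSK GFPneg-lo replicate 2. The 15 replication genes became 6 without WT LK GFPhi replicate 1, 5 without WT LK GFPhi replicate 3, 5 without WT LSK GFPneg-lo replicate 1 and 7 without WT LSK GFPneg-lo replicate 2, and 5 in a fit of the 6 arrays alone.

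Genes of protein folding and export in the endoplasmic reticulum, the route by which granule proteins are made, rose in part. Of 41 measured 16 rose, 0 fell and 25 were not called, with a median of 0.60. The share of all genes that rose was 4.73%, and 7.9% fell. Sdf2l1, a chaperone component, was 10.54, 9.30 and 10.63 in WT LK GFPhi cells and 8.16, 8.32 and 8.82 in WT LSK GFPneg-lo cells (1.72 ± 0.31), with replicate 2 lowest in its group. Ddost, of the oligosaccharide transferase, rose by 0.71 ± 0.16, and Srp68, of the signal recognition particle, by 0.52 ± 0.11. The mean of this list was 11.83, 11.10 and 11.74 on WT LK GFPhi replicates 1, 2 and 3, against 10.95, 10.83 and 10.95 on the WT LSK GFPneg-lo arrays. The 16 became 28 without WT LK GFPhi replicate 2, 7 without WT LK GFPhi replicate 1 or 3, and 4 in a fit of the 6 arrays alone. Of 33 lysosomal genes 14 rose and 1 fell, among them the protease gene Ctsh (2.26 ± 0.36), the sulfatase gene Arsb (1.56 ± 0.30) and the saposin precursor gene Psap (1.01 ± 0.22), and 9 rose without WT LK GFPhi replicate 3, without WT LSK GFPneg-lo replicate 1 or in a fit of the 6 arrays alone. The 1 fall was lost without WT LK GFPhi replicate 1 or 3 or WT LSK GFPneg-lo replicate 2 or 3.

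**Figure D4:**
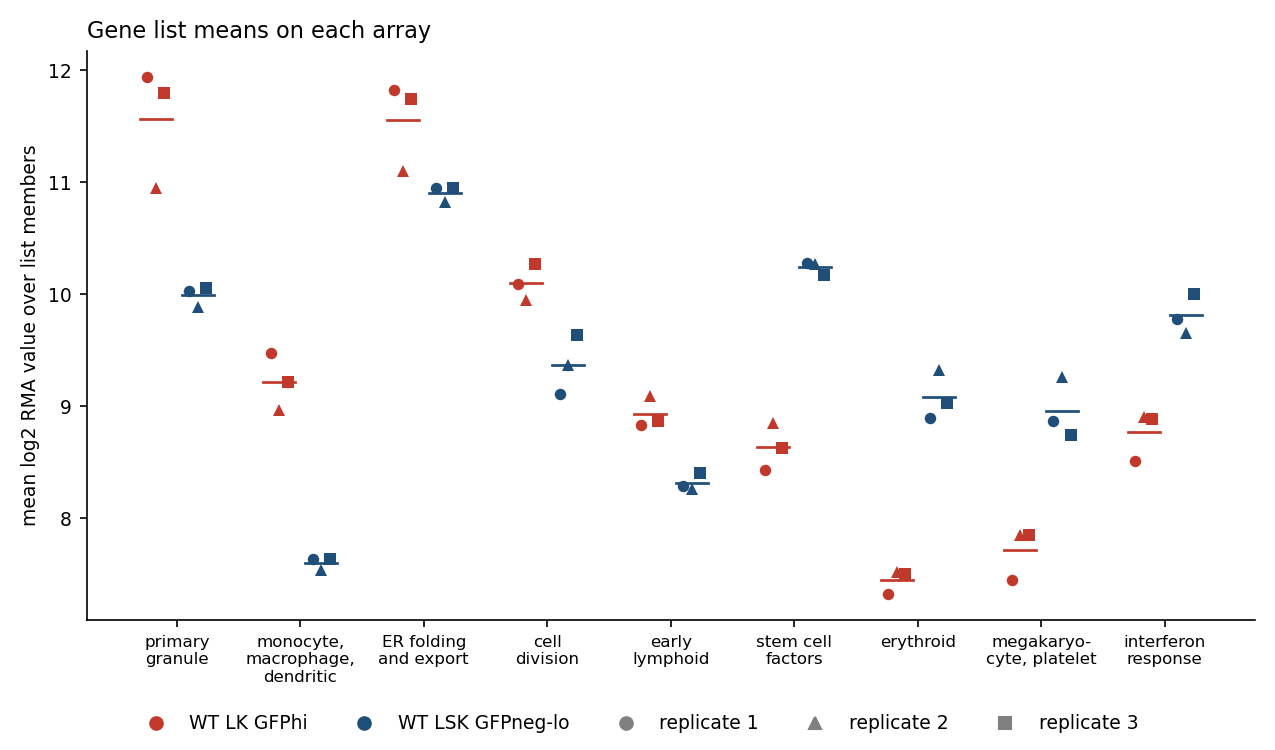
Mean log2 RMA value (y axis) over the members of 9 gene lists on each WT LK GFPhi array (red) and each WT LSK GFPneg-lo array (blue), with marker shape for the replicate number and bars for group means. The groups are apart for each list, and WT LK GFPhi replicate 2 is the lowest of its group for primary granule (10.95 against 11.94 and 11.79) and endoplasmic reticulum genes and the highest for early lymphoid and stem cell factor genes. WT LSK GFPneg-lo replicate 2 is also the lowest of its group for primary granule (9.89 against 10.03 and 10.05) and endoplasmic reticulum genes.

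Ribosomal and mitochondrial genes were counted in the same way. Of 44 cytosolic ribosomal protein genes 0 were called in either direction, with a median of -0.03. Of 61 mitochondrial ribosomal protein genes 5 rose and 0 fell, of 72 respiratory chain genes 6 rose and 0 fell, and of 23 citric acid cycle genes 4 rose and 0 fell (4.73% of all genes rose). Differences above 0 were seen for 55 of the 61, 61 of the 72 and 21 of the 23, with medians of 0.28, 0.16 and 0.35. In a fit of the 6 arrays alone the rises numbered 1, 0 and 2, and with the replicate block the citric acid cycle rises numbered 8. Without WT LK GFPhi replicate 2 these rises numbered 16, 12 and 11, and without WT LK GFPhi replicate 3 they numbered 1, 2 and 2. The mitochondrial ribosomal rises numbered 1 without WT LK GFPhi replicate 1, 2 without WT LSK GFPneg-lo replicate 1 and 3 without WT LSK GFPneg-lo replicate 3. The citric acid cycle rises numbered 2 without WT LK GFPhi replicate 1 or WT LSK GFPneg-lo replicate 2. Idh1 is counted on the citric acid cycle list, although it encodes the cytosolic isocitrate dehydrogenase. It was 12.05, 11.37 and 11.75 in WT LK GFPhi cells and 10.60, 10.75 and 10.53 in WT LSK GFPneg-lo cells (1.09 ± 0.15), with no overlap. Fh1, fumarate hydratase, rose by 0.99 ± 0.24. Among 19 glycolysis genes 3 rose and 5 fell, so enzymes of the pathway differed in direction, and 6 rose without WT LK GFPhi replicate 2. Hk3, the hexokinase of myeloid cells, rose by 1.04 ± 0.16 and Pgam1, a phosphoglycerate mutase, by 1.09 ± 0.19, while Aldoc, the brain-type aldolase, was 6.89, 7.03 and 6.89 against 9.22, 9.38 and 9.05 (-2.28 ± 0.23).

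Some detoxification and signalling genes were lower in WT LK GFPhi cells. Over all genes 4.73% rose and 7.9% fell, and the counts in this paragraph stand beside these shares. Of 30 glutathione and detoxification genes 7 fell and 2 rose, the falls including Nqo1, a quinone reductase (-1.49 ± 0.16), Gstt1, a glutathione transferase (-1.84 ± 0.23), and Gclm, the modifier subunit of glutathione synthesis (-1.44 ± 0.18). The 2 rises became 0 without WT LK GFPhi replicate 1 or WT LSK GFPneg-lo replicate 2, and 1 without WT LK GFPhi replicate 3 or WT LSK GFPneg-lo replicate 1 or 3. Of 28 TGF-beta and BMP pathway genes 6 fell and 1 (Id2) rose. Tgfbr3, the betaglycan co-receptor, was 7.66, 7.47 and 7.54 in WT LK GFPhi cells, against 11.05, 11.09 and 10.68 in WT LSK GFPneg-lo cells (-3.38 ± 0.15, 10.4-fold lower, adjusted p = 1.99e-11). Ltbp3, which binds latent TGF-beta, was 9.42, 10.62 and 9.72 against 11.54, 11.55 and 11.58 (-1.64 ± 0.26). Neither gene overlapped between groups. Of 32 polycomb and DNA methylation genes 6 fell and 1 (Uhrf1) rose, with Cbx7 (-1.08 ± 0.13) and Phc1 (-1.01 ± 0.11) of polycomb complex 1 and the methyltransferase gene Dnmt3b (-0.75 ± 0.15) among the falls, which became 10 with the replicate block. The 1 rise became 3 with the block and 2 without WT LK GFPhi replicate 2. Among 23 Notch pathway genes 3 rose and 4 fell. The rises became 1 without WT LSK GFPneg-lo replicate 2 and the falls 2 without WT LK GFPhi replicate 1 or WT LSK GFPneg-lo replicate 3. Dtx4, of the Deltex family in the Notch pathway, rose by 2.04 ± 0.19. Of 15 Bcl2 family genes 3 rose and 1 fell, and the rises were Pmaip1 (NOXA, 1.98 ± 0.27), Bid (0.95 ± 0.21) and the survival gene Bcl2 itself (1.36 ± 0.30). Of 16 mast cell and basophil genes 2 rose and 3 fell (5 with the block). The 2 rises were Mcpt8, a basophil protease (9.44, 8.49 and 9.16 against 6.73, 6.75 and 6.94), and Hdc, histidine decarboxylase (9.77, 8.41 and 9.58 against 6.50, 7.09 and 7.37). Of 10 MHC class II genes 0 were called by limma, and 1 was lower with the block or without WT LK GFPhi replicate 2.

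The other WT populations place these differences. WT LK GFPhi cells differed at 826 genes (4.54%) from WT LSK GFPhi cells and at 3376 genes (18.6%) from WT LK GFPneg cells. Both comparisons use the WT LK GFPhi arrays again, so their values are given side by side. Mpo averaged 13.94 in WT LK GFPhi cells, 13.41 in WT LSK GFPhi cells, 9.14 in WT LK GFPneg cells and 12.26 in WT LSK GFPneg-lo cells. Its order put WT LK GFPhi and WT LSK GFPhi cells next to each other without a called difference (0.53, adjusted p = 0.429). Elane averaged 11.27, 8.82, 7.04 and 7.22 in the same order of populations, and its difference from WT LSK GFPhi cells was called (2.45, adjusted p = 0.00134). Irf8 averaged 11.41 in WT LK GFPhi cells and 10.14 in WT LSK GFPhi cells (1.27, adjusted p = 0.0206), and Csf1r 12.72 and 11.66 (1.06, adjusted p = 0.0131). Dntt averaged 12.89 in WT LK GFPhi cells and 13.28 in WT LSK GFPhi cells, a difference that was not called (-0.39, adjusted p = 0.76), while Il7r was higher in WT LK GFPhi cells by a called amount (1.17, adjusted p = 0.0111).

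Stem cell genes were lower in WT LK GFPhi than in WT LSK GFPhi cells as well, at 7.16 against 9.67 for Mecom (-2.51, adjusted p = 6.8e-06) and 7.44 against 8.98 for Procr (-1.54, adjusted p = 0.00163). For Slamf1 (-0.05), Vwf (0.34) and Gata1 (-0.16) WT LK GFPhi and WT LSK GFPhi cells did not differ by a called amount. Against WT LK GFPneg cells, Gata1 was 7.54 in WT LK GFPhi cells and 12.12 in WT LK GFPneg cells (-4.59), Car1 7.55 and 13.62 (-6.07), and Aldh1a1 5.22 and 11.09 (-5.87). Of the interferon genes, Iigp1 averaged 7.73 in WT LK GFPhi cells, 10.21 in WT LSK GFPhi cells, 7.86 in WT LK GFPneg cells and 10.90 in WT LSK GFPneg-lo cells, and so was high in both LSK populations. Gbp2, Ifit1 and Ddx58 were likewise higher on every array of both LSK populations than on the WT LK GFPneg arrays. Isg20 was not, at 9.72, 10.20 and 9.86 in WT LK GFPneg cells, against 8.49, 8.88 and 9.48 in WT LSK GFPhi cells. Racgap1, of cell division, was 9.08 in WT LK GFPhi cells and 8.84 in WT LK GFPneg cells, which was not called (0.24, adjusted p = 0.713).

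**Figure D5:**
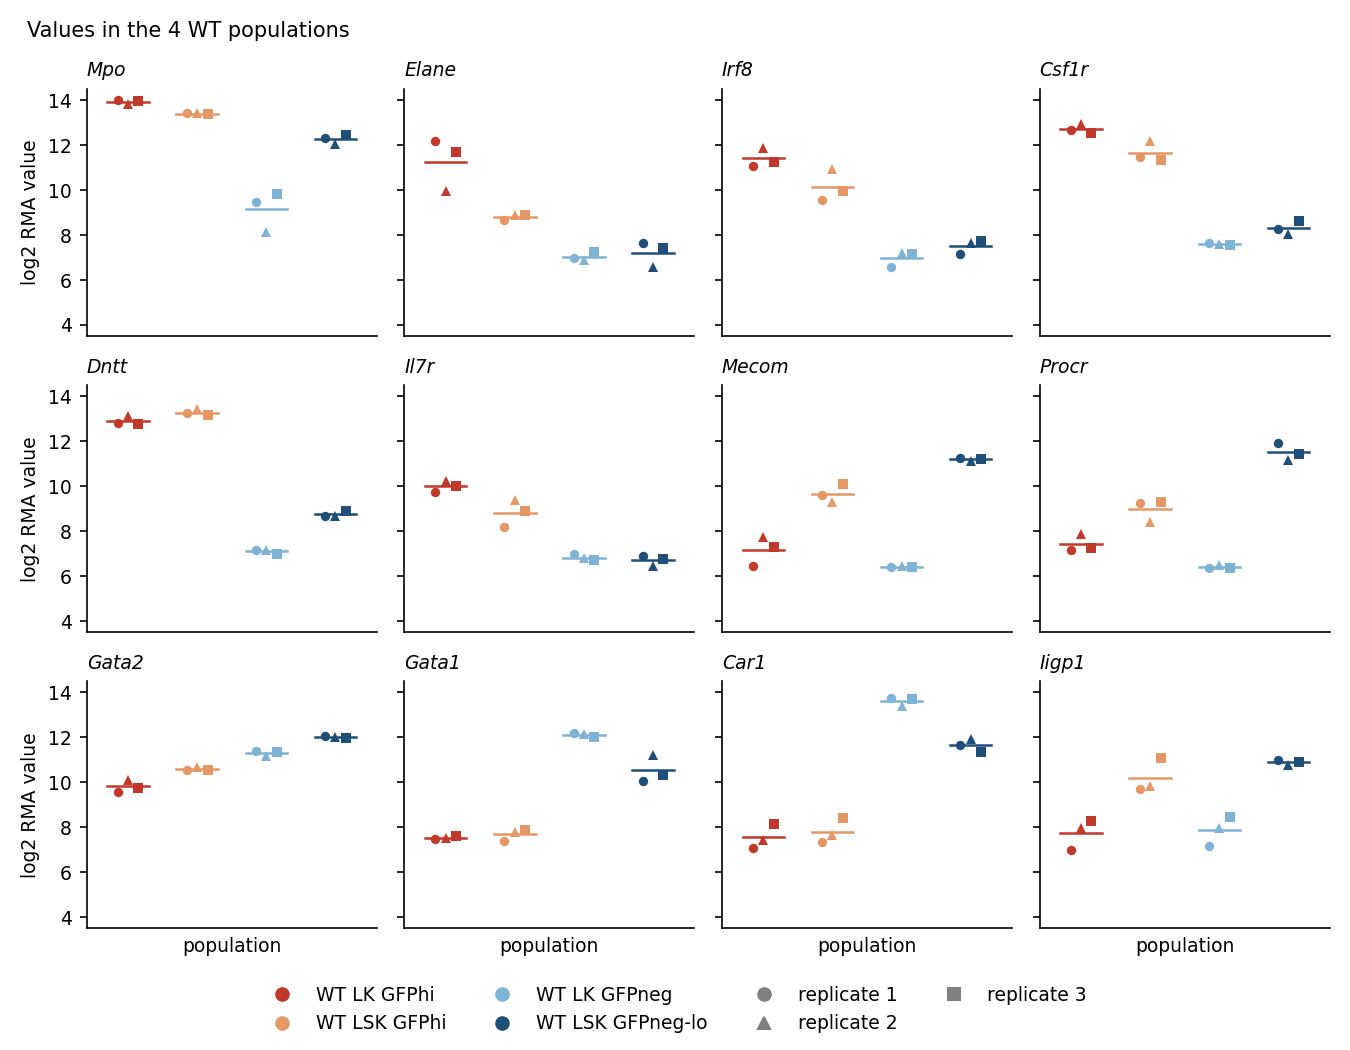
Log2 RMA values (y axis) of 12 genes on the 12 WT arrays, by population from left to right WT LK GFPhi, WT LSK GFPhi, WT LK GFPneg and WT LSK GFPneg-lo, with marker shape for the replicate number and bars for means. Mpo and Dntt are high in both GFPhi populations, Mecom and Procr peak in WT LSK GFPneg-lo cells, Gata1 and Car1 peak in WT LK GFPneg cells, and Iigp1 is high in both LSK populations.

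The same contrast was available in mice lacking Ikaros, and the interaction term tests whether it differed there. It was called at 187 of 18193 genes (1.03%), 118 of them with a higher (0.649%) and 69 with a lower (0.379%) contrast in KO mice. The count was 57 in a fit of the 12 arrays of the 4 groups, 119 without the dimmest 40% of genes, 685 with array weights and 733 with the replicate block within genotype. With single arrays left out the count was 103 to 270. It was 107 without WT LK GFPhi replicate 1 or WT LSK GFPneg-lo replicate 2, 113 without WT LK GFPhi replicate 3 or WT LSK GFPneg-lo replicate 1, and 103 without KO LSK GFPneg-lo replicate 3. The I74 and reporter lines also differ in strain, so genotype and strain cannot be told apart. The interaction and the WT contrast share the 6 WT arrays, so their values are given side by side. Il7r differed by -0.06 between KO LK GFPhi and KO LSK GFPneg-lo cells and by 3.28 between the WT populations, an interaction of -3.33 (adjusted p = 4.31e-05). Rag1 (0.01 in KO and 1.60 in WT) and Cmah, the hydroxylase of sialic acid (0.06 and 2.99), likewise had KO contrasts near 0, with called interactions of -1.59 and -2.92. Fgd5 differed by -0.65 in KO and by -4.22 in WT mice, an interaction of 3.57 (adjusted p = 2.94e-05). The granule genes Mpo, Elane, Prtn3 and Ctsg had no called interaction (adjusted p = 0.995, 0.978, 0.26 and 0.388), and their KO contrasts were 1.69, 4.12, 1.08 and 2.74.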

How the data were processed

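Total RNA of sorted mouse cells was labelled as biotinylated cRNA and hybridised to 1-colour Affymetrix arrays, per the labels' protocols. The deposited table holds log2 values that the authors made with RMA, per the submitters' processing notes, and its version was not given in the sources used here. Of 45101 probe sets, 64 controls, 932 with several gene symbols and 9160 with none were left out, and each of 18193 genes was represented by its probe set of highest mean over the 24 arrays. Genes without a probe set of their own symbol were not analysed here.

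One limma model (limma 3.58.1, R 4.3.3) of 8 group means was fitted to all 24 arrays, each group with 3. Contrasts were WT LK GFPhi minus WT LSK GFPneg-lo, WT LK GFPhi minus each other WT population, and the KO minus WT difference of the first. P-values were adjusted by Benjamini-Hochberg over all genes, with a threshold of 0.05. An exact permutation test of 3 against 3 arrays cannot go below 0.1. With 3 arrays a group, their number limits the precision.

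Replicate numbers in the titles were taken to pair the WT arrays, because deviations from the group means correlated at 0.634, 0.495 and 0.254 between arrays of the same number, against -0.504 to 0.0312 between others. Among KO arrays of the same number the lowest was 0.0832, and the main interaction was not paired either. Alternatives were the fit of 6 or 12 arrays, the replicate block, a dim filter, other probe set rules, trend and robust eBayes, array weights, other scalings and each array left out.

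Members and the 50 gene lists were chosen with earlier results of these data known. The text names the 15 largest rises and falls whose arrays do not overlap, up to 5 called members of each list by smallest adjusted p, a panel of known genes, and the 4 largest interactions each way. Ms4a3, Vwf, Tfrc, Xist and Eif2s3y lie outside this rule and were chosen after their values were seen. The markers set against the labels are a list that was also chosen with earlier results known. Changes simulated at 18193 genes for the WT contrast (200 changed) were recovered in 43.3%, 83.6% and 95.5% of cases at 0.5, 1 and 2 log2 units, with 1.33% false calls. For the interaction the shares were 19.4%, 65.7% and 92.4%, with 4.84% false calls. The simulated noise was independent between arrays, with no shared replicate effect and no array standing apart. These rates therefore need not hold for the real arrays.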

Additional observations from a re-analysis of the deposited data

Results flagged for a closer look

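The contrast of LK GFPhi with LSK GFPneg-lo cells differed between KO and WT mice at 187 genes by the interaction term of the limma fit, and the named genes among them are given here as the KO contrast minus the WT contrast (log2). Genotype and strain cannot be told apart. The count was 57 to 733 under the alternatives, and the interaction shares the WT arrays with the WT contrast.

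Among genes that rose in WT LK GFPhi cells, the contrast was lower in KO mice for the monocyte genes F13a1 (-2.27), Ly86 (-2.17), Csf1r (-1.58), Cx3cr1 (-1.49) and Tlr1 (-1.17). It was lower too for the lymphoid genes Il7r (-3.33), Dntt (-2.95) and Rag1 (-1.59), for Il6st (-2.34), Cmah (-2.92), Tifab (-2.01), Bcl2 (-1.92), Fosl2 (-1.75) and S1pr3 (-1.39), and for the division gene Top2a (-0.97). Slc35d3, not called in the WT contrast, had -3.01.

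Among genes that fell in WT LK GFPhi cells, the contrast was higher in KO mice for the stem cell genes Fgd5 (3.57), Procr (2.51) and Gata2 (1.38), and for Sox6 (2.28), Mamdc2 (2.27), Csgalnact1 (2.38), Apoe (2.63), Grb10 (2.10), Aldoc (1.90), Ltbp3 (1.70) and Tgfbr3 (1.40). It was higher as well for the megakaryocyte and erythroid genes F2r (1.69), Itga2b (1.55) and Nfe2 (0.93). Lcn2 (3.97), Prg2 (3.35) and H2-Aa (3.35), genes of mature neutrophils, eosinophils and antigen-presenting cells, were not called in the WT contrast and differed by 4.82, 3.31 and 2.94 between KO LK GFPhi and KO LSK GFPneg-lo cells.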

How the results depend on the processing

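Of the 129 called genes that are named, 124 kept their call under each of the 16 alternatives that measured them, since filters on probe sets left some out. Fcgr3, Ms4a3, Flt3, Spi1 and Tgm2 did not, as given with their values above. Most named genes were picked for a large difference or a small adjusted p in the main fit, so this share need not hold for other called genes. A 2-fold minimum was not among the 16, and named genes such as Top2a (0.67) and Srp68 (0.52) lie below it. The 2299 genes called in the WT contrast became 4092 with array weights and 860 with a 2-fold minimum, and 1542 to 2809 with single arrays left out. The 861 higher calls became 497 in a fit of the 6 arrays, 2009 with array weights and 520 to 1266 with single arrays left out. Paired by the replicate block, they became 1410, with 1962 lower and 3372 in all. The interaction's 187 became 119 without the dimmest 40% of genes, 685 with array weights, 57 in a fit of the 12 arrays, 733 with the replicate block within genotype and 103 to 270 with single arrays left out. Genes near 0 changed sign. Gfi1 was -0.040 without WT LSK GFPneg-lo replicate 2, and its range over single arrays left out was -0.040 to 0.49. Csf3r was 0.020 with arrays centred on the median and -0.093 to 0.00114 with single arrays left out, the highest without WT LK GFPhi replicate 2. Prg2 was 0.18 with array weights, 0.017 with centring and -0.21 to 0.18 with single arrays left out, above 0 without replicate 2 of WT LK GFPhi (0.18) or WT LSK GFPneg-lo (0.11). The causes were not tested. Centring moved the median of all genes by 0.063. Of 68 named called genes with several probe sets, 32 had another probe set that was not called and 0 had a called one of opposite sign. The arrays give no depth, and signals near background bound differences from below.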
